A study of Mus musculus with 3 samples.

Results

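Cells given a vector for ATM were compared with cells given an empty vector, across all genes that the arrays could measure. The cells were primary mouse embryonic fibroblasts (MEFs) of the strain C57BL/6J, taken at E10.0 from the embryo of an Rb-ATM double knockout mouse, and both groups carried the genotype Rb-/-;ATM-/-. The first group received an empty vector. The second received a vector expressing ATM, so its label adds ATM-reconstituted to the same genotype, while both lack Rb. The descriptions name the same parent cells for every group. A further group of the study, given a vector for a short hairpin RNA against Dnmt1, is printed as a further value on another array of the same cells. It is set beside the empty vector array in places, which it shares as its control, and its own comparison is not described. All cells were selected with puromycin at 4 µg/ml for 3 days and grown for 4 further days. RNA of each group was hybridised to 1 Agilent array with 1 dye (Cy3), and nothing in the labels says how many cultures or embryos a sample holds.

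Members were the genes for which 1 or both of the compared arrays had a probe well above background. After control spots and outlier spots were left out, 13242 of the 20010 genes that a probe names by symbol met this rule, 12163 of them measured on both arrays. A further 498 were not well above background on the empty vector array, 577 were not well above background on the array labelled ATM vector, and 4 had probes that pointed in opposite directions. With 1 array a side there is no p-value and no standard error. Every ratio below compares 2 arrays, which also lay on different slides, so vector, culture, slide and scan cannot be told apart.

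ATM is a protein kinase that DNA double-strand breaks activate, and it phosphorylates p53 and many other proteins of the DNA damage response. pRB restrains the E2F transcription factors that drive entry into S phase, so cells without it enter the cycle more readily. Fibroblasts of the embryo come from mesenchyme of different body regions, keep positional transcription factors of those regions in culture, and secrete matrix, growth factors and chemokines.

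Levels are given as scaled signals, the processed signal after each array was scaled so that its 75th percentile is 1000. They are listed in a fixed order, in the text and in parentheses after a gene's name: empty vector, then Dnmt1 shRNA, then the array labelled ATM vector. A probe's level says nothing about another probe's level, so only the same gene is compared between arrays. Fold differences are between the array labelled ATM vector and the empty vector array. Where a gene was not well above background on 1 of them, its fold is written as at least N-fold, because the dim side was set at the higher of its own signal and the lowest signal well above background on that array (16.4 and 15.5 scaled units). Most genes rest on 1 probe. Over 3162 genes with several probes measured on both arrays, the pooled SD between probes of a gene was 0.34 on the log2 scale, and a 2-fold difference is 1 on that scale.

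The arrays were of similar sensitivity for most genes and differed in their spike-in controls. Probes well above background made up 55.1%, 59.6% and 55.0% of 39404 probes, and the log2 values of repeated spots of a probe had an SD whose median was 0.046, 0.047 and 0.051. The spike-in signal stood 207-fold and 220.0-fold above background on the arrays of slide 1 and 33.6-fold above it on slide 2, which held only the array labelled ATM vector. The software's range check on negative controls was passed by the first pair and not by the third, with mean negative-control signals of 39.4, 37.3 and 40.6 intensity units. The part of these differences in the ratios was not tested.

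Several markers that define fibroblasts were present on both arrays, while others differed between them. Vim, an intermediate filament protein of mesenchymal cells, had scaled signals of 77106, 75252 and 87294. The collagen genes Col1a1 (45924, 50365, 53633) and Col3a1 (55557, 48599.8, 80443) and the PDGF receptor genes Pdgfra (56.6, 128, 47.1) and Pdgfrb (9808, 12509.7, 8863) were detected on every array. These 5 genes differed by less than 1.5-fold between the compared arrays. Also among the defining markers, Col1a2 was within 2-fold and Dcn was more than 2-fold lower, with signals given below among the matrix genes. Over the whole list of 29 fibroblast markers with a probe, 27 were tested, 4 were at least 2-fold higher, 6 lower and 17 neither, and the ratios measured on both arrays ran from -3.76 to 4.95 on the log2 scale. Of those tested, 1 was dim with the empty vector and 2 with the ATM vector. Thy1, a surface glycoprotein, was not well above background on the empty vector array (13.7) and just passed on the array labelled ATM vector (21.1). The 1 Atm probe that was well above background read 186, 178 and 195, a log2 ratio of 0.06, and the Rb1 probe read 234, 379 and 219, a log2 ratio of -0.10. Where these probes lie relative to the deleted exons or the vector's insert is not given in the sources used here, so they are no check of the knockout or of the vector.

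Most genes were close on the 2 arrays, and a minority differed by very large factors. The median log2 ratio over genes measured on both arrays was 0.03, with quartiles of -0.29 and 0.35, and 74.6% of them lay within 1.5-fold. At least 2-fold higher on the array labelled ATM vector were 988 genes (7.46% of those tested), 755 as measured and 233 by a bound. At least 2-fold lower were 879 genes (6.64%), 563 as measured and 316 by a bound. Differences of at least 8-fold were found for 105 genes higher and 160 lower. The groups of genes below are read against these shares of 7.46% and 6.64%. The samples are bulk RNA, so fewer cells of a type and less RNA per cell cannot be told apart in any of these ratios.

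**Figure D1:**
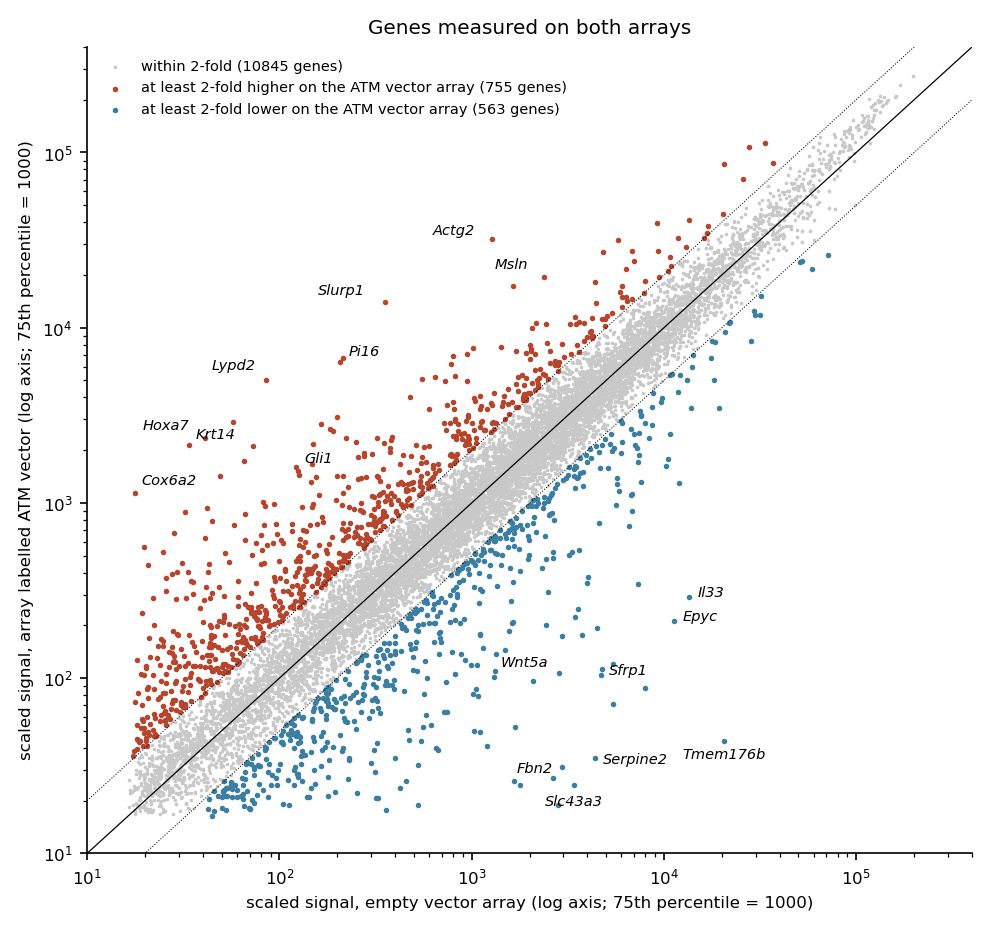
Each point is 1 of the 12163 genes measured on both arrays, with its scaled signal for the empty vector on the x axis and for the array labelled ATM vector on the y axis, both on log axes. The solid line is equality and the dotted lines are 2-fold; 755 genes lie above the upper dotted line and 563 below the lower one, and labelled genes are among those farthest from equality.

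The genes farthest above equality encode proteins of unlike kinds. Cox6a2, the heart and skeletal muscle form of a cytochrome c oxidase subunit, had scaled signals of 17.7, 196 and 1139 and was 64.2-fold higher. Krt14, a keratin of basal epithelial cells, stood at 33.9, 143 and 2138. Both were near background on the empty vector array, whereas Actg2, the enteric smooth muscle actin, was well detected on all arrays at 1269.7, 8897 and 32178 and was 25.3-fold higher. The secreted and surface proteins Slurp1, Lypd2 and Psca of the Ly6 family were 39.9-fold, 59.1-fold and 17.8-fold higher, and their signals on the Dnmt1 shRNA array (475, 94.1 and 50.7) were close to those on the empty vector array (353, 85 and 44.5). Pi16, a protease inhibitor that marks a subset of fibroblasts, stood at 206, 404 and 6377. Tlx2, a homeobox gene of enteric and autonomic neurons, gave the largest bound: it was not well above background on the first 2 arrays (3.86 and 3.00) and read 2556 on the third, at least 156-fold higher.

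On the lower side, the largest differences left low signals, some of them not well above background, from genes that were bright on both arrays of slide 1. Emb, the cell adhesion protein embigin, stood at 11432, 14156 and 4.16, at least 735-fold lower. Tmem176b and Tmem176a, neighbouring genes for membrane proteins of 1 family, read 20423, 19818 and 44 for the former and 1909, 1842 and 4.44 for the latter. Rspo3, a secreted enhancer of Wnt signalling, read 7746, 2784 and 3.98. Serpine2, an inhibitor of thrombin and plasminogen activators, read 4370.0, 6860.4 and 35.2, and Slc43a3, a purine nucleobase transporter, 3423, 3636 and 24.5. Both were detected on every array and were more than 100-fold lower on the third. Penk, the precursor of the enkephalin peptides, read 1713, 3544 and 8.25, and Plxdc2, a transmembrane protein with a plexin domain, 5089, 5535 and 4.03. For all 8 of these genes the Dnmt1 shRNA array sat within 3-fold of the empty vector array.

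Other genes near the top of the measured ratios act in unrelated processes. Enpp3, an ectoenzyme that splits nucleotides, read 65.6, 84.5 and 1745, and Naip2, a sensor of bacterial secretion systems, read 49.1, 215 and 1432. Rbpjl, a transcription factor of the exocrine pancreas, read 19.8, 28.7 and 562, and the adhesion protein Ceacam2 28.3, 7.82 and 676. These 4 genes were dim or weak on the empty vector array. Asb4, an ankyrin repeat protein from an imprinted region, read 164, 233 and 2803, and Zfp536, a zinc finger repressor of neuronal differentiation, 24.8, 24.1 and 523. Among bounds, the membrane ferroxidase Heph was at least 25.7-fold higher, the adrenomedullin-family hormone Adm2 at least 21.6-fold higher, the immune receptor Havcr2 at least 42.4-fold higher, the B cell adaptor Blnk at least 17-fold higher and the synaptic vesicle protein Syt2 at least 17.4-fold higher. All 5 were not well above background on the empty vector array.

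Lower genes included several surface and signalling proteins that were well detected on the empty vector array. Fxyd6, a regulator of the sodium pump, read 2817, 3615 and 18.8, 149.9-fold lower. Npr3, the clearance receptor for natriuretic peptides, read 1656, 3664 and 26, and Svep1, a large matrix adhesion protein, 1778, 2309 and 24.7. The cell adhesion proteins Alcam (2084, 1209, 95.8) and Cxadr (1106, 539, 49.5), the latter a virus receptor at cell junctions, were 21.8-fold and 22.3-fold lower. The docking protein Efs (5455, 7518, 121), the kinase Hunk (4756, 3699, 113) and the RNA-binding Khdrbs3 (528, 536, 18.9) were each more than 20-fold lower. Gda, which deaminates guanine, was at least 45-fold lower, and Ppp2r2b, a regulatory subunit of protein phosphatase 2A, at least 50.8-fold lower. For each gene of this paragraph the array labelled ATM vector held the lowest of the 3 values.

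Among 106 gene lists, high shares of higher members were found for Hox genes, stress signalling, smooth muscle markers and glutathione transferases, and high shares of lower members for retinoid genes, growth factors of the EGF family, chemokines and small proteoglycans. Mesothelial markers had high shares of both. Lists of housekeeping machinery held almost no 2-fold difference. The lists and their members were chosen with earlier results of these arrays known, so a list's share describes these arrays and is not independent evidence of a direction.

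**Figure D2:**
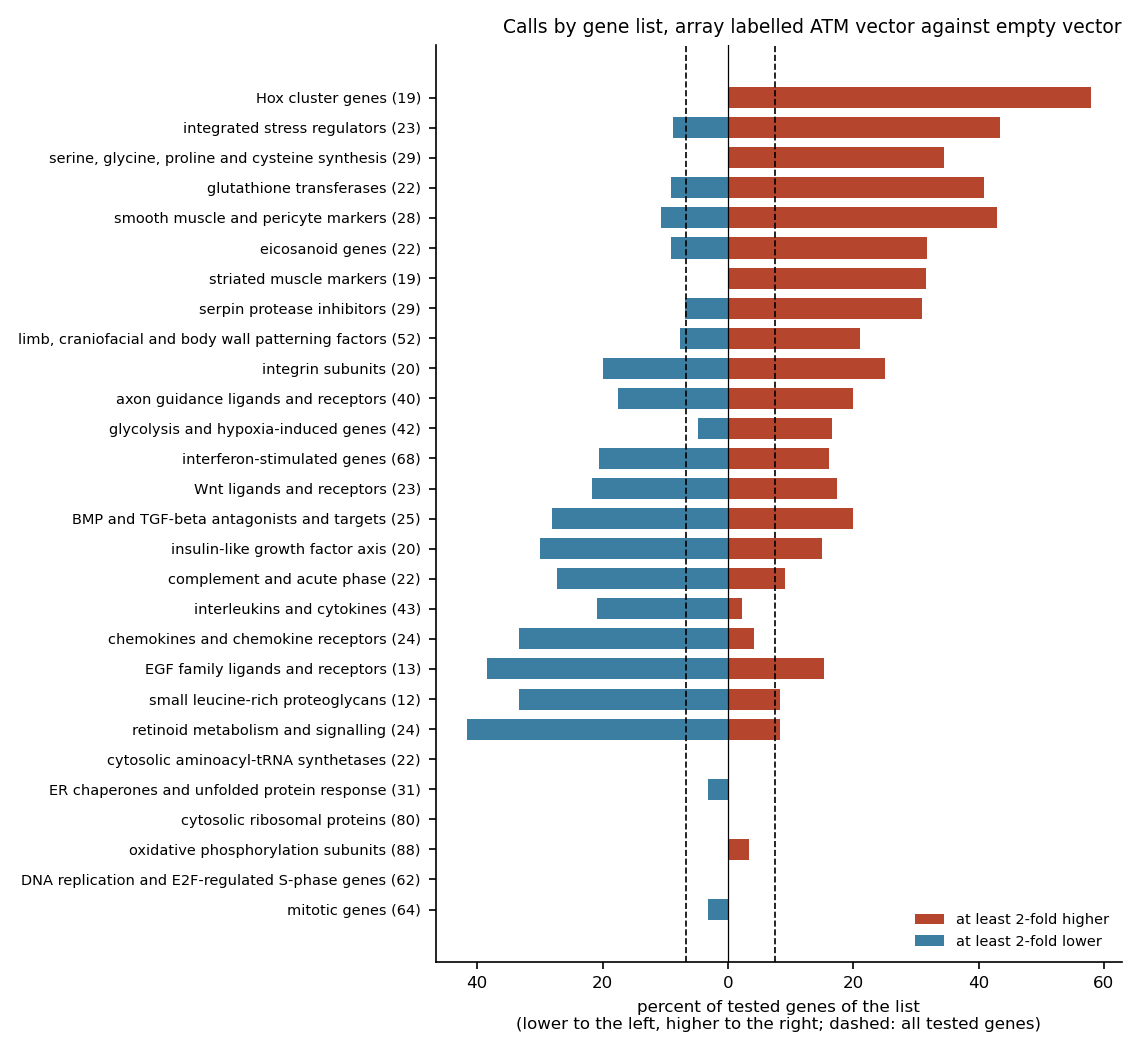
Bars give the percent of each list's tested genes (number in parentheses) that were at least 2-fold higher (right) or at least 2-fold lower (left) on the array labelled ATM vector; dashed lines mark the shares over all tested genes, 7.46% and 6.64%. Hox genes reach 57.9% higher with 0 lower, with 9 of the 19 dim on the empty vector array and able only to be higher, and retinoid genes reach 41.7% lower.

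The integrated stress response is a pathway in which kinases that sense amino acid shortage, unfolded protein or other stress phosphorylate the initiation factor eIF2, which lowers general translation and raises translation of the transcription factor ATF4. ATF4 in turn drives genes for amino acid supply and further regulators. Of its regulators, 10 of 23 tested members were at least 2-fold higher and 2 at least 2-fold lower, with a median log2 ratio of 0.80. Ddit3, the transcription factor CHOP, had scaled signals of 597, 1161 and 3425 and was 5.74-fold higher. Trib3, a pseudokinase that feeds back on ATF4, stood at 4807, 8560.2 and 27039, and Atf5, a transcription factor related to ATF4, at 27829.5, 40137 and 108022. Each was highest on the array labelled ATM vector and intermediate on the Dnmt1 shRNA array. Atf3 (log2 ratio 1.36), Nupr1 (1.42), Sesn2 (1.16), a sestrin that restrains mTORC1, and Ppp1r15a (1.16), the phosphatase subunit that reverses eIF2 phosphorylation, also passed 2-fold. Atf4 itself was just under, at 12094, 12504 and 23652, a log2 ratio of 0.97. The members that were lower were Stc2, a secreted glycoprotein, at least 4.26-fold lower from a dim signal on the array labelled ATM vector, and Rgs2, a regulator of G-protein signalling, 2.24-fold lower.

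Enzymes that make serine, glycine, proline and cysteine were also often higher: 10 of 29 tested members were at least 2-fold higher and 0 at least 2-fold lower, and all 29 were measured on both arrays. With each chromosome's median subtracted, 8 were higher and 0 lower. The median log2 ratio was then 0.44, beside 0.60 without that step. Cth, which releases cysteine from cystathionine, read 191, 238 and 2590.5 and was 13.6-fold higher. The mitochondrial folate enzymes were Aldh1l2 (1424, 1712, 7719.9) and Mthfd2 (2939, 2799, 8102), and Psph, the last step of serine synthesis, read 2039.9, 2035 and 7349.6. On these 4 genes the array labelled ATM vector was high and the other arrays were close to each other. Asns, asparagine synthetase, was 2.74-fold higher at 25887, 31219 and 70865, Psat1 2.07-fold higher and Shmt2 2.13-fold higher. Phgdh, the first step of serine synthesis, had a log2 ratio of 0.60, under 2-fold. Of amino acid transporters, 6 of 24 tested members were at least 2-fold higher and 3 at least 2-fold lower. Among the higher ones were the glycine transporter Slc6a9 (3449, 4497, 11553), the cationic amino acid light chain Slc7a7 (309, 509, 1079) and the glutamine carrier Slc1a5 (1026, 1003, 2591). Slc7a11, the cystine carrier and a known ATF4 target, was nearly equal at 227, 294 and 260.0, and the neutral amino acid carriers Slc43a2 and Slc38a1 were 4.06-fold and 2.27-fold lower.

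Related groups did not show such counts. None of 22 tested cytosolic aminoacyl-tRNA synthetases passed 2-fold, although 16 of them were above 0 (median 0.16), led by Sars at 0.95 and Gars at 0.92, with Hars at -0.90. Of 31 chaperones and regulators of the endoplasmic reticulum, 0 were higher and 1 was lower, Cdnf, a neurotrophic factor of that compartment, with a median of -0.14. The chaperone Hspa5 (63828, 47374, 52129), the calcium-binding Calr (29085, 23504, 20438) and the disulfide isomerase P4hb (22358, 22149, 15953) were each lower on the array labelled ATM vector than on the empty vector array, by less than 1.5-fold. Of 27 heat shock proteins, 3 were higher and 0 lower, among them the factor Hsf2, 2.64-fold higher. The plot of stress genes draws members picked by hand with earlier results known, so the contrast it shows is not further evidence. Among members measured on both arrays, 3 of 21 stress regulators and 8 of 29 synthesis enzymes were below 0. Of the 30 chaperones and regulators of the endoplasmic reticulum measured on both, 13 were above 0 and 17 below.

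**Figure D3:**
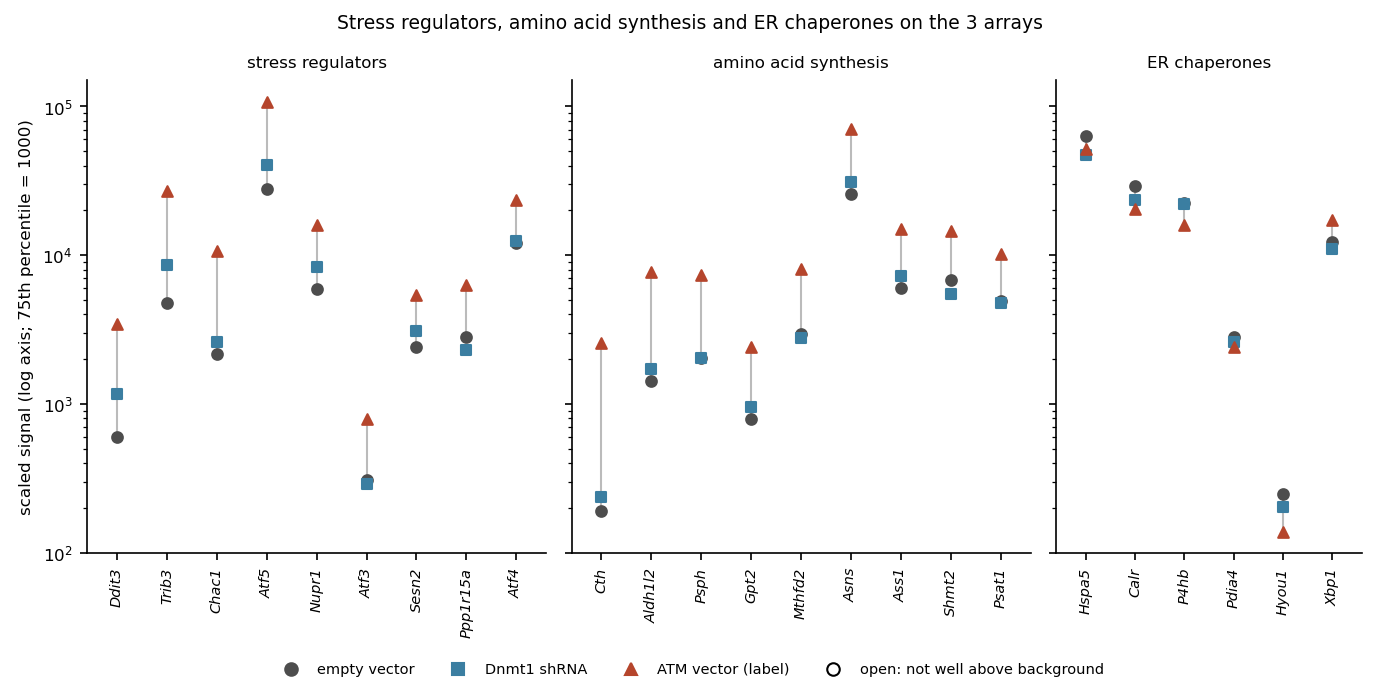
Scaled signals (log axis) of stress regulators, amino acid synthesis enzymes and chaperones of the endoplasmic reticulum on the empty vector array (circles), the Dnmt1 shRNA array (squares) and the array labelled ATM vector (triangles), with a grey line joining the compared arrays. Triangles lie above both other marks for the 18 genes of the first 2 panels, whereas in the chaperone panel only Xbp1 is highest on the array labelled ATM vector. The genes drawn were picked by hand with earlier results known and leave out members that went the other way.

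ATF4 is known to bind, with C/EBP proteins, a composite element that can be written TGATGNAAN. Promoters of members of the stress, amino acid synthesis, transporter and synthetase lists were searched for it on both strands, over the 250 bases before the RefSeq start of the gene (build GRCm38.p6). The element was found in 7 of the 21 higher members with a promoter entry (33.3%), in 6 of 51 members that were neither higher nor lower (11.8%), in 0 of 4 lower members and in 264 of 10554 tested genes with an entry (2.50%). Over all 27025 genes in the RefSeq promoter table the share was 3.89%. A match describes letters in this window and is not a measured binding site. The 250 bases upstream of 4 higher members are shown because each holds a single match on either strand, given in capitals, that can be set beside its gene's ratio: Chac1, a glutathione-degrading enzyme, 4.91-fold higher, Asns, 2.74-fold higher, Atf3, 2.57-fold higher, and Nupr1, a stress-induced nuclear protein, 2.68-fold higher.
Chac1 (chr2:119350992-119351241, plus strand): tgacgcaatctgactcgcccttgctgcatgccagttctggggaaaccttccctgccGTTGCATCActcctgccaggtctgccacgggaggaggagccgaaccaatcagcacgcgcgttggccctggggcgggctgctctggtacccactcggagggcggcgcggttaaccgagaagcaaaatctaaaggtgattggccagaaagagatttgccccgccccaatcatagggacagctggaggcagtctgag
Asns (chr6:7693210-7693459, minus strand): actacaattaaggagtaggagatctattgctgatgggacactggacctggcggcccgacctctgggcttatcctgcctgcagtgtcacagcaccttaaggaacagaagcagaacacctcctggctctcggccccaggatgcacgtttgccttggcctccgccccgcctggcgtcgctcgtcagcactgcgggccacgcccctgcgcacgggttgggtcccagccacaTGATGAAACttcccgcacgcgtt
Atf3 (chr1:191183334-191183583, minus strand): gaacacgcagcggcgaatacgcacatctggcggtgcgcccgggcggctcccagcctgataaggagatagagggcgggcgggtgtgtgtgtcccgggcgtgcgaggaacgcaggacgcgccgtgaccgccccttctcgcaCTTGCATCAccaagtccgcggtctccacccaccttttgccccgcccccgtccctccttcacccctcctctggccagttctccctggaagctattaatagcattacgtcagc
Nupr1 (chr7:126625471-126625720, minus strand): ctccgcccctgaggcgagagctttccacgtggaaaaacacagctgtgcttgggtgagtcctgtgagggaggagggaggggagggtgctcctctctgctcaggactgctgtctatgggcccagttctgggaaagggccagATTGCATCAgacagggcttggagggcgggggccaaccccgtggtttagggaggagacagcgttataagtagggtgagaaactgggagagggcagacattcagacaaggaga
All are written 5′ to 3′ on the gene's strand. The match begins 194 bases before the start of Chac1, 23 before that of Asns, and 111 before those of both Atf3 and Nupr1. The other 3 higher members with a match were Pck2, Slc7a7 and Vldlr.

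Glutathione transferases, which attach glutathione to reactive compounds, were also often higher: 9 of 22 tested members were at least 2-fold higher and 2 at least 2-fold lower. They included Gsta2 (159.8, 367, 1106), Gsta1 (348, 661, 2211) and Gsta4 (102, 223, 613), which are neighbours on chromosome 9 and alike in sequence, so that their probes may share signal. They also included the theta class genes Gstt1 (2000.0, 2435, 7959) and Gstt3 (909.6, 1308, 2509) on chromosome 10. In each of these 5 genes the order of the arrays was the same, the empty vector lowest and the array labelled ATM vector highest. Mgst1, a membrane-bound transferase, went the other way at 8381, 7364 and 2350.1. Other antioxidant genes had few such members. Of 44 targets of the oxidative stress factor NRF2 and antioxidant enzymes, 1 was higher, the autophagy receptor Sqstm1 (2.34-fold higher), and 3 were lower, among them the extracellular superoxide dismutase Sod3 (5804, 3609, 1177) and the carbonyl reductase Cbr1 (1775, 1188, 409.7). The antioxidant response element, written TGACNNNGC, was in 1 of 9 higher members of both lists (11.1%) and in 1 of 4 lower members (25%). It was in 9 of 46 members that were neither (19.6%) and in 13.6% of tested genes.

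Enzymes and receptors of eicosanoids, the lipid mediators made from arachidonic acid, included 7 higher and 2 lower members of 22. Counting only the 19 measured on both arrays, 5 were higher and 1 lower. In the leukotriene branch the lipoxygenase Alox5 (122, 389, 466) and its activating protein Alox5ap (211, 191, 979) were higher, and the hydrolase Lta4h (6529, 5895, 10606) was under 2-fold. Of the receptors, Ptgir (20.9, 31.6, 170.4) for prostacyclin and Tbxa2r (80.6, 906, 446) for thromboxane were higher, while Ptger4, a receptor for prostaglandin E2, was 2.72-fold lower and Ptgfr at least 4.07-fold lower. The cyclooxygenases differed little, with log2 ratios of 0.53 for Ptgs1 and 0.37 for Ptgs2. On the Dnmt1 shRNA array Tbxa2r was higher than on either of the others.

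Hox genes encode homeobox factors that are switched on in order along 4 clusters and hold positional identity along the body axis. Of 39 Hox genes with a probe, 19 were tested, and of these 10 were measured on both arrays and 9 were dim on the empty vector array, so the last could pass only by being higher. Of the 10 measured on both arrays, 3 were at least 2-fold higher and 0 lower. In cluster A, 5 of 9 tested genes were at least 2-fold higher, in cluster B 5 of 8, in cluster C 1 of 2, and in cluster D no gene was well above background on either array. Along cluster A, the anterior genes Hoxa2 and Hoxa3 had log2 ratios of 0.62 and 0.77, the middle genes Hoxa4, Hoxa5 and Hoxa7 had 1.54, 2.31 and 5.84, Hoxa6 was at least 4.04-fold higher, and the posterior Hoxa9, near background on both arrays, had -0.20. Hoxa10 was detected only on the array labelled ATM vector, at least 4.99-fold higher. Hoxa7 read 41.1, 108 and 2344, low on both arrays of slide 1, and Hoxa5 167, 181 and 829. In cluster B the anterior genes Hoxb2 (2676, 2184, 1643) and Hoxb4 (3067, 2744, 1771) were lower without passing 2-fold, and 5 tested genes from Hoxb5 to Hoxb13 were under detection on both arrays of slide 1 and detected on the third. Among them, Hoxb7 (3.8, 2.71, 730.4) was bright on the third array, Hoxb6 (3.48, 8.40, 121) was weaker, and Hoxb5 and Hoxb8 were close to the detection limit there, at 51.8 and 43.9.

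Other positional factors were mixed. Of patterning factors of the limb, face and body wall, 11 of 52 tested members were at least 2-fold higher and 4 at least 2-fold lower. Counting only the 45 measured on both arrays, 7 were higher and 3 lower. Higher were the distal-less homeobox gene Dlx4 (66, 180.0, 865), the neural plate zinc finger factor Zic2 (52.3, 33.8, 517) and the LIM homeobox gene Lhx9 (24.3, 28.5, 166). The mesenchymal basic helix-loop-helix factor Twist2 read 989, 912 and 119 and was 8.33-fold lower, and the T-box factor Tbx2 was 3.96-fold lower. Broad mesenchymal factors such as Prrx1 (4525, 5749.6, 4680.2) and Twist1 (2289, 1913, 1713) were within 1.5-fold. Among homeobox cofactors of the TALE class, 4 of 18 were lower, with Irx3 at 3588, 3385 and 248 and the Hox cofactors Meis2 and Pbx3 2.16-fold and 2.12-fold lower, and 2 were higher. With each chromosome's median subtracted, 1 was higher and 1 lower. Factors of visceral mesoderm included Foxf2, at least 8.02-fold higher, and Foxd1 and Gata6, 3.12-fold and 2.13-fold lower.

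Retinoic acid is made from retinol by retinal dehydrogenases and acts through nuclear receptors that control positional genes. Genes of its synthesis and response were more often lower than higher: 2 of 24 tested members were at least 2-fold higher and 10 at least 2-fold lower, and 8 members were not well above background on the array labelled ATM vector. Over the 15 members measured on both arrays the median was 0.038, and 7 of the 10 lower members were those not well above background on that array, which could only be lower. The retinal dehydrogenases were Aldh1a1 (733, 4067, 94.8) and Aldh1a3 (218, 1746, 11.3), and the related enzyme was Aldh1a7 (787, 768, 18.8). All 3 were lowest on the array labelled ATM vector, and the first pair was highest on the Dnmt1 shRNA array. Rarres1, a gene named for its induction by a retinoic acid receptor agonist, read 794, 1086 and 3.75, and the retinol carrier Rbp4 267, 586 and 9.81. The retinol uptake receptor Stra6 was 2.28-fold lower. The receptor Rarb, itself a retinoic acid target, was at least 2.57-fold lower, while the receptors Rara, Rarg and Rxrb had log2 ratios of -0.33, 0.37 and 0.50. Crabp2, which carries retinoic acid to its receptors, was higher at 5773, 8640.4 and 31827, 5.51-fold higher, and Rdh10, which makes retinal, was 2.07-fold higher. Cyp26b1, an enzyme that degrades retinoic acid, was close between the compared arrays at 2027, 4134 and 2080.4.

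**Figure D4:**
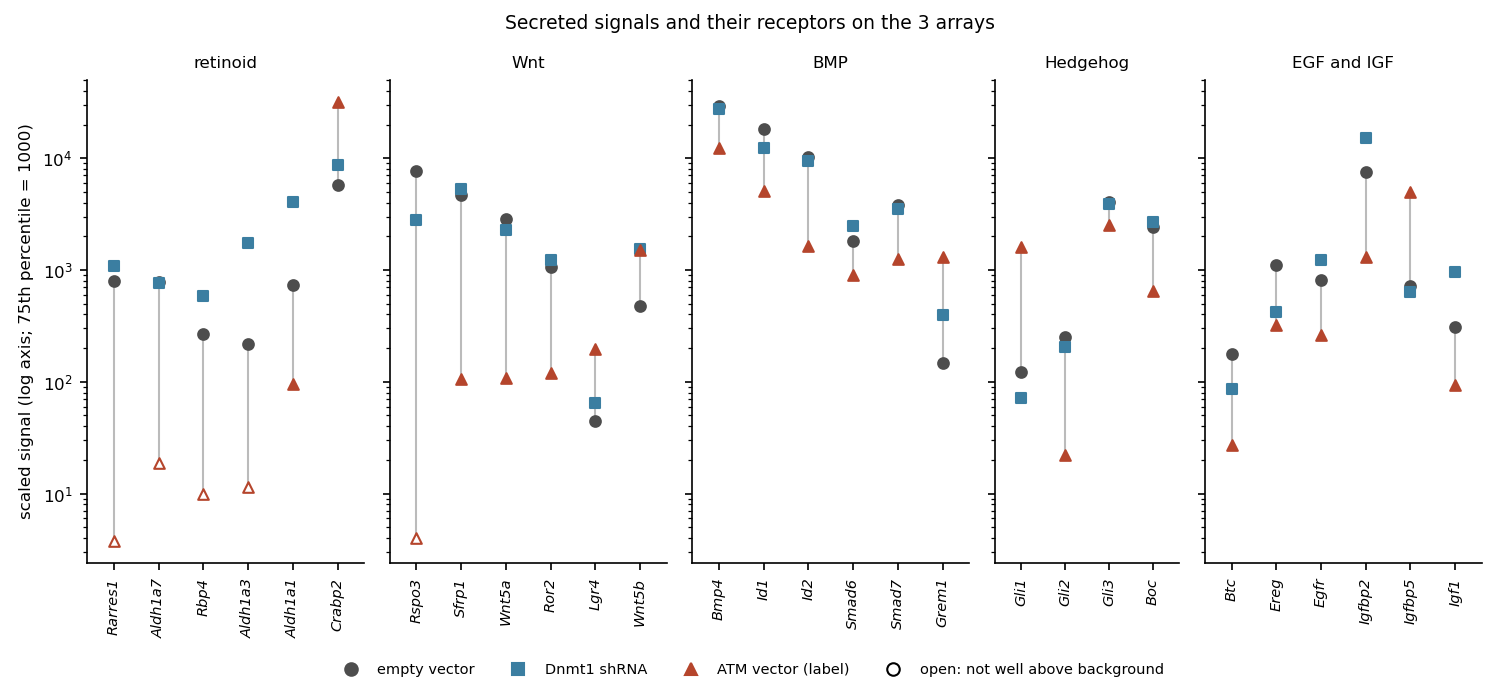
Scaled signals (log axis) of retinoid, Wnt, BMP, Hedgehog, EGF and IGF genes on the empty vector array (circles), the Dnmt1 shRNA array (squares) and the array labelled ATM vector (triangles), with open marks where the signal was not well above background. Triangles lie lowest for all retinoid genes drawn except Crabp2, and highest for Lgr4, Grem1, Gli1 and Igfbp5. The genes drawn were picked by hand with earlier results known. Of all 15 retinoid members measured on both compared arrays, 8 had a log2 ratio above 0 and 7 below.

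Wnt proteins are secreted signals that act through Frizzled receptors, with LRP co-receptors in the canonical branch and ROR receptors in the branch that Wnt5a is known for. Of ligands and receptors, 4 of 23 tested members were at least 2-fold higher and 5 at least 2-fold lower. Wnt5a read 2832, 2265 and 107.2 and its receptor Ror2 1070.2, 1237 and 119, so both were more than 8-fold lower on the array labelled ATM vector and near equal on the others. Wnt11 and the receptor Fzd8 were 3.56-fold and 4.29-fold lower. In the other direction, the higher members were the ligands Wnt5b (471, 1525, 1502) and Wnt10b (54.5, 189.7, 204), the receptor Fzd3 (128, 201, 464) and the R-spondin receptor Lgr4 (44.4, 64.4, 195). Both ligands were also higher on the Dnmt1 shRNA array than on the empty vector array. Among secreted modulators, Rspo3 was at least 498-fold lower, and the antagonists Sfrp1 and Frzb were 44.9-fold and at least 4.11-fold lower. Of the transcription factors that carry the signal, Tcf7 was 4.30-fold higher. The list of antagonists, R-spondins and targets held 15 of 19 tested members that passed 2-fold in neither direction, Myc among them at 2417, 2242 and 3082.

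BMPs and TGF-beta are ligands of 1 superfamily that act through SMAD proteins, and Id1, Id2, Smad6 and Smad7 are common targets. Of 32 tested ligands and receptors, 1 was at least 2-fold higher, 5 at least 2-fold lower and 26 neither, a median of -0.16. The ligand Bmp4 read 29340.3, 27451 and 12447 and was 2.36-fold lower, and Tgfb3 and the activin subunit Inhba were 2.64-fold and 2.47-fold lower. The targets Id1 (18204, 12442, 5045) and Id2 (10297, 9469.7, 1627) and the inhibitory SMADs Smad6 (1820.5, 2497, 894) and Smad7 (3788, 3527, 1254) were lower. In all 4 the array labelled ATM vector was the lowest. Among BMP antagonists, Grem1, which encodes gremlin, read 147, 393 and 1313, and Nog, which encodes noggin, was at least 2.64-fold higher, while Chrd, which encodes chordin, had a log2 ratio of 0.22. The activin antagonist Fst was 2.52-fold lower and Htra1, a secreted protease, 7.57-fold lower. Of antagonists and targets together, 5 of 25 tested members were at least 2-fold higher and 7 at least 2-fold lower, a median of -0.40. Counting only the 22 measured on both arrays, 3 were higher and 7 lower.

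Hedgehog signals end on the GLI factors, and Gli1 is a standard target gene. In the Hedgehog and Notch pathways together, 2 of 25 tested members were at least 2-fold higher, 5 at least 2-fold lower and 18 neither. Of the 25, 3 were dim on the array labelled ATM vector and could only be lower. Over the 21 measured on both arrays, 2 were higher and 3 lower. Gli1 read 121, 70.9 and 1609, 13.3-fold higher, while Gli2 read 252, 207 and 22, 11.5-fold lower, and Gli3 had a log2 ratio of -0.67. The co-receptor Boc was 3.72-fold lower. For the Notch pathway, the ligand-like proteins Dlk1 and Dner were at least 14.2-fold and at least 10.65-fold lower, and the targets Hey1 and Heyl went in opposite directions, 3.11-fold lower and 4.44-fold higher.

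In the EGF family, 2 of 13 tested members were at least 2-fold higher and 5 at least 2-fold lower, a median of -0.53. The lower members were the ligands Btc (178, 86, 27.1), Ereg (1111, 419.7, 323) and Epgn (136, 33.2, 36.2), the ligand Tgfa (at least 3.71-fold lower) and the receptor Egfr (809, 1236, 260.2). The higher members were Lrig1 and Lrig3, transmembrane proteins of which the first restrains EGF receptors, 2.98-fold and 2.12-fold higher. Ereg and Btc were also lower on the Dnmt1 shRNA array than on the empty vector array, whereas Egfr was higher there. In the insulin-like growth factor axis, 3 of 20 tested members were at least 2-fold higher and 6 at least 2-fold lower. Among the 18 measured on both arrays, 3 were higher and 4 lower. The ligand Igf1 (307, 953, 93.1) and the binding protein Igfbp2 (7575, 15138, 1319) were lower, and the binding protein Igfbp5 (726, 638, 4953) was higher. The proteases Pappa and Pappa2, which free IGF from binding proteins, were 2.95-fold and 4.89-fold lower. Igf1r was within 1.5-fold at 6489.8, 7799.8 and 5226.

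Of 16 tested FGF ligands and receptors, 1 was at least 2-fold higher, 4 at least 2-fold lower and 11 neither. Their median log2 ratio was 0.11. The lower members were the receptor Fgfr2 (2.70-fold lower), the decoy receptor Fgfrl1 (2.67-fold lower), Fgf18 (2.89-fold lower) and the adhesion protein Flrt3 (4.28-fold lower). The higher member, Fgf1, was at least 5.76-fold higher, a bound that could only be higher. Over the 15 measured on both arrays, 0 were higher and 4 lower. Among other growth factors, 7 of 39 were higher and 7 lower, and of the 36 measured on both arrays 5 were higher and 6 lower. Lowest on the array labelled ATM vector were pleiotrophin, Ptn (1224, 727, 8.73), hepatocyte growth factor, Hgf (5142, 3949.7, 1593), and the KIT ligand, Kitl (126, 78.4, 28.3). Highest there were placental growth factor, Pgf (155, 257, 1409), and the neurotrophic ligands Gdnf (133, 171, 703) and Artn (305, 449.6, 1906). Pparg, a nuclear receptor that regulates fat cell differentiation, was 4.05-fold lower.

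Guidance molecules steer axons and migrating cells. Of 40 tested ligands and receptors, 8 were higher, 7 lower and 25 neither, and with normexp background correction 6 were higher and 3 lower. Counting only the 32 measured on both arrays, 8 were higher and 4 lower. The class 3 semaphorins Sema3a (60.6, 138, 291), Sema3b (800.3, 2513, 6879) and Sema3c (93.8, 183, 288) and the netrin Ntn1 (54.7, 101, 458) were all highest on the array labelled ATM vector. The Slit ligands Slit2 and Slit3 were 4.12-fold and at least 17.4-fold lower and the Slit receptor Robo1 2.18-fold lower. The ephrin Efna5 read 4501, 5173 and 193, 23.3-fold lower, and the receptor Epha8 was at least 27.2-fold higher, while the other 16 of 18 tested ephrins and Eph receptors passed 2-fold in neither direction. Cadherins were mixed. The mesenchymal Cdh11 (877, 1105, 137) and the large atypical Fat4 (517, 613, 109.5) were lower, and Cdh13 (1099.9, 1451, 2708), which has a lipid anchor, was 2.46-fold higher.

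Of 28 tested collagen chains, 2 were higher, 6 lower and 20 neither. The chains of the main fibroblast collagens, Col1a1, Col1a2 (133530.0, 130464, 210513) and Col3a1, were within 2-fold. The cartilage collagens Col2a1 (28314, 33128, 8355) and Col9a1 (919, 383, 8.82) were lower. Col5a3 was 4.89-fold higher and Col14a1 13.6-fold lower, the latter from 2 probes with log2 ratios of -6.24 and -1.29. Small leucine-rich proteoglycans, which bind collagen fibrils, had 4 lower and 1 higher of 12, with a median of -0.58. The lower ones included epiphycan, Epyc (11291, 17556, 213), lumican, Lum (12002, 29829, 1301), and decorin, Dcn (51052, 84194, 23763). These 3 neighbours on chromosome 10 were lowest on the array labelled ATM vector and highest on the Dnmt1 shRNA array. Podnl1 was 4.52-fold higher. Among elastic fibre genes, the embryonic fibrillin Fbn2 (2965, 2205, 31.2), elastin, Eln (182, 511, 34), and the crosslinking enzyme Lox (12176, 13488, 5363) were lower. They were the 3 lower of 27 tested, with 0 higher and 24 neither.

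Of matricellular and adhesive proteins, 4 of 34 tested members were at least 2-fold higher and 6 at least 2-fold lower. Periostin, Postn (1011, 3304, 7614), and the TGF-beta-induced Tgfbi (16918, 10457, 37815) were higher, whereas Ccn3 and Thbs2 were 4.12-fold and 2.74-fold lower. The hyaluronan synthases went opposite ways, Has1 (1099, 623, 4086) higher and Has2 (6545, 2975, 737) lower. Pcolce2, an enhancer of collagen propeptide cleavage, read 200.4, 134 and 3092. The laminin chain Lamb3 of epithelial basement membranes was 14.5-fold higher, and Nid1 and Lama4 were 2.33-fold and 2.19-fold lower. Integrin subunits differed in both directions: Itgb7 was 28.8-fold higher, Itga7, a laminin receptor of muscle, 6.77-fold higher and Itga6 2.31-fold higher, while Itga4 was at least 12.2-fold lower, Itga3 7.97-fold lower and the collagen receptor Itga11 2.17-fold lower. Of 29 tested serpins, 9 were higher and 2 lower, Serpine2 among the latter. Over the 25 measured on both arrays, 6 were higher and 2 lower, as 4 were dim with the empty vector. PEDF, Serpinf1 (4409, 8491, 13806), and the C1 inhibitor, Serping1 (42.5, 55.2, 402), were higher. The 4 Serpina1 genes among them are near-identical neighbours, so their signals may be shared. Matrix metalloproteinases and their inhibitors differed little, with 10 of 12 past 2-fold in neither direction.

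Among genes of innate immunity, chemokines and cytokines were more often lower than higher, and interferon targets went both ways. Of chemokines and their receptors, 1 of 24 tested members was at least 2-fold higher and 8 at least 2-fold lower, and 3 of the lower ones were dim on the array labelled ATM vector, so they could only be lower. Lower were Cxcl12 (71024, 85497, 26025), the main chemokine of stroma, Cxcl14 (476, 344, 3.76) and Ccl17 (302, 303, 64.9). Ccl9 was the higher member at 2441, 1645 and 10507, and Ccl2 had a log2 ratio of 0.54. Of interleukins, other cytokines and their receptors, 1 of 43 tested members was at least 2-fold higher and 9 at least 2-fold lower. Restricted to the 40 measured on both arrays, 1 was higher and 6 lower. Lower were the alarmin Il33 (13547, 14125, 289), the interleukin-1 receptor antagonist Il1rn (937, 1127, 12.9) and the receptor Il1r1 (2434, 2692, 476). Il18, an interleukin that caspase-1 activates, was the exception at 149.8, 249.8 and 2177, 14.5-fold higher, and Casp1 itself was at least 9.51-fold higher. Lower complement genes included the component C4b (231, 968, 34.2) and clusterin, Clu (3770.4, 8379.8, 177), and the acute phase protein Lbp was at least 38.4-fold lower.

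Of interferon-stimulated genes, 11 of 68 tested members were at least 2-fold higher and 14 at least 2-fold lower. Lower were the RNA sensors and their effectors Ifih1 (384, 312, 90.8), Dhx58 (77, 129, 32.1), Trim25 (1562, 1606, 186) and Ifit1 (396, 267, 86.4), as well as the deconjugating enzyme Usp18 (73.6, 78.7, 19.5) and the immunoproteasome subunit Psmb8 (2.64-fold lower). Higher were the membrane proteins Ifitm1 (214, 631, 6689) and Ifi27l2a (275, 583, 1938) and the class I histocompatibility genes H2-K1 (553, 1163, 1227), H2-D1 (2001, 2525, 4238) and H2-T23 (1615, 2289, 3790.3), all detected on every array. Class I genes are highly similar, so their probes may share signal. Isg15, a widely used reporter of the response, read 979.8, 1842 and 732, within 1.5-fold between the compared arrays. The binding element of interferon-activated factors, searched under its name ISRE on both strands, was in 5 of 11 lower members with a promoter entry (45.5%), in 2 of 6 higher members (33.3%), in 12 of 35 others (34.3%) and in 3.09% of tested genes.

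Growth machinery differed by small amounts. The 80 tested cytosolic ribosomal protein genes had log2 ratios between -0.34 and 0.82, with 76 above 0 and a median of 0.40, beside 0.03 over all genes. Examples are Rps15 (64030.2, 57456, 112671) of the small subunit and Rplp0 (96671, 106083, 153432) of the large one. Mitochondrial ribosomal proteins had a median of 0.07. Proteasome subunits were below 0 in 28 of 37 (median -0.20), and subunits of oxidative phosphorylation had a median of 0.14. Of the last list, 3 of 88 were at least 2-fold higher, and they were forms restricted to certain tissues or states: Cox6a2, Cox7a1, a muscle form (2.51-fold higher), and Ndufa4l2, a gene induced in hypoxia (4.24-fold higher). The ribosomal median depended on the scaling, at 0.03 under quantile normalization and 0.21 under cyclic loess.

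Genes of the cell cycle, the process pRB restrains, differed by small amounts. None of 62 replication and E2F-regulated genes passed 2-fold, 43 were below 0, and the median was -0.21. Gins2, Ccne1 and Mcm10 had log2 ratios of -0.84, -0.79 and -0.68, and E2f2 0.91. Of 64 mitotic genes 47 were below 0, with a median of -0.19. The 2 that passed 2-fold were Foxm1, a transcription factor that drives mitotic genes (1655, 1328 and 677), and the condensin subunit Ncapd2 (22154, 19037, 10803). Ccnd2, a D-type cyclin, read 17644, 30027 and 6721, 2.63-fold lower, and was the 1 member of the cyclin and CDK list past 2-fold. Cdkn1a, the p53-induced CDK inhibitor p21, read 692, 1687 and 435, a log2 ratio of -0.67.

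ATM acts in DNA damage signalling, and genes of that process had a median of -0.13, with 1 of 63 past 2-fold, Trp53bp1 (251, 172, 122), a mediator protein at breaks. That difference was under 2-fold with normexp background correction, with the brightest probe alone and with chromosome medians subtracted. Brca1, which acts in homologous recombination, had a log2 ratio of -0.72. Of 50 p53 target genes, 4 were higher and 2 lower, shares near those of all genes. The higher ones were the growth arrest gene Gadd45a (647, 865, 5204), the apoptosis effector Perp (9220.2, 10405, 39435) and the sestrins Sesn1 and Sesn2; Gadd45a and Sesn2 are also known targets of stress signalling. Usp7 and Kat5, a deubiquitinase and an acetyltransferase known to act on the stability of the Dnmt1 protein, read 1804, 1939 and 1599 for the former and 1122, 1143 and 1425 for the latter, within 1.5-fold. Dnmt1 itself read 2123, 464 and 1509, with its lowest value on the array of its own short hairpin. Uhrf1, which recruits Dnmt1 to replicated DNA, was equal at 1121, 952 and 1179, and the de novo methyltransferases Dnmt3a and Dnmt3b had log2 ratios of -0.79 and -0.43.

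Immediate early genes, which growth factor signalling induces within minutes, held 4 higher and 7 lower of 41. Fos, Fosb and Junb, subunits of the factor AP-1, were 2.52-fold, 2.07-fold and 2.50-fold lower, and Egr1, Jun and Myc were within 1.5-fold. The zinc finger factor Egr2 (483, 894, 1851) and the phosphatase Dusp1 (959.6, 800.3, 2413) were higher. The serum response element core, searched under its name CArG box, was in 3 of 13 higher members of the immediate early, smooth muscle and SRF lists with an entry (23.1%), in 0 of 11 lower members, in 6 of 49 others (12.2%) and in 1.51% of tested genes. Replication-dependent histones were uneven. The linker histone H1f1 (281, 249, 1406) was higher and H1f2 (5722, 5788, 1277) lower, and of 41 histone genes 2 were higher and 6 lower. Their median was 0.25. With chromosome medians subtracted, 5 were higher and 6 lower.

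Hypoxia-induced and glycolytic genes were higher in 7 of 42, with a median of 0.32. Higher were Ankrd37 (51.8, 127, 293), a target of hypoxia-inducible factors, the mitochondrial receptor Bnip3 (1443, 2100.4, 3572), and Ndrg1 (1888, 4137, 3854), and all 3 were also higher on the Dnmt1 shRNA array than on the empty vector array. Car12, a carbonic anhydrase, and the lactate carrier Slc16a3 were at least 8.30-fold and 2.49-fold lower. None of 28 sterol synthesis genes passed 2-fold. The cholesterol exporter Abca1 read 1345, 1508 and 137, 9.82-fold lower. Fat cell genes were mixed: the fatty acid carrier Fabp3 (25.6, 25.4, 314) and the factor Ebf1 (131, 149, 944) were higher, and Pparg and Cebpa (2.08-fold lower) lower.

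Solute carriers and channels went both ways. Of 222 carriers, 11.7% were higher and 12.2% lower, and of the 195 measured on both arrays 21 were higher and 14 lower. With normexp background correction 21 were higher and 15 lower. The glutamate transporter Slc1a6 (3466, 3088, 224) was lower and the sugar carrier Slc2a6 (93.6, 93, 989) higher. Among channels, Kcnmb4 (184, 401, 2632) and Kcnn4 (32.8, 103, 285), parts of calcium-activated potassium channels, were higher and the T-type calcium channel Cacna1g (744, 948, 64.5) lower. Regulators of G-protein signalling, which speed the shut-off of these receptors' signals, held 5 higher and 2 lower of 13. Clustered protocadherins, neuronal adhesion genes in 3 tandem arrays, held 2 higher and 6 lower of 22, while 6 tested ones were dim with the empty vector and 3 with the ATM vector. Zinc finger genes numbered with the prefix Zfp had smaller shares than all genes, with 3.73% higher and 4.35% lower of 322. Olfactory and vomeronasal receptor genes, which fibroblasts are not known to use, gave 9.90% and 13.9% of 101 tested, out of 1305 with a probe. Of the tested ones 19 were dim with the empty vector and 27 with the ATM vector, and over the 55 measured on both, 2 were higher and 1 lower.

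Markers of other cell types were looked at as whole lists, and their part in the results above was not tested. Of smooth muscle and pericyte markers, 12 of 28 tested members were at least 2-fold higher and 3 at least 2-fold lower, and the summed scaled signal of the list was 277712, 328388 and 395947. Among the 25 measured on both arrays, 10 were higher and 3 lower. Their log2 ratios ran from -3.60 to 4.66, with 16 above 0 and 9 below. Higher members included calponin, Cnn1 (2462, 4034, 8219), desmin, Des (14.4, 45.9, 114), the signalling regulator Rgs4 (27.8, 102, 396) and the pericyte proteoglycan Cspg4 (1039.9, 851, 3829). Des was not well above background on the empty vector array, so it could only be higher. The major contractile genes Acta2 (64815, 80634, 99400.5) and Tagln (52928, 52818, 42682) were within 2-fold, in opposite directions. Striated muscle markers included 6 higher of 19 tested, from a summed signal of 3958, 5529.6 and 7151, with the troponins Tnnt2 (954, 1388, 3109.9) and Tnni2 (41.6, 62.8, 331). Of these markers 5 were dim on the empty vector array, and over the 13 measured on both arrays 2 were higher. Epithelial markers had 5 higher and 4 lower of 20 tested, and 4 higher and 2 lower of the 16 measured on both arrays. Keratins had 5 higher and 2 lower of 18. Krt14 and Krt16 (124, 144, 487), which lie in 1 cluster, were higher and Krt19 (2315, 1986, 428) lower, and the epithelial cadherin Cdh1 was near background at 30.5, 46.9 and 54.7.

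Mesothelial markers were split, 6 higher and 4 lower of 14, with mesothelin, Msln (2384, 3731, 19467), higher and ezrin, Ezr (2653, 3459, 27), and the protease inhibitor Slpi (7294, 7783, 346) lower. Over the 11 of them measured on both arrays, 5 were higher and 4 lower. Endothelial markers held 0 higher and 4 lower of 13, including the factor Fli1 (408, 234, 3.34) and Selp (400.2, 302, 35), while Pecam1 was near background at 25, 29.4 and 45. Fli1 was not well above background on the array labelled ATM vector, so it could only be lower. Over the 12 endothelial markers measured on both arrays, 0 were higher and 3 lower, with 6 ratios above 0 and 6 below. Of 40 blood and macrophage markers with a probe, 14, 15 and 16 were well above background on the 3 arrays. Among the 17 tested, 4 were higher, 2 lower and 11 neither, and 3 were dim with the empty vector. Ratios were below 0 for 10 of the 13 measured on both arrays. Of the globins, the near-identical alpha genes Hba-a1 (11.6, 13.7, 961) and Hba-a2 (57.6, 147, 2911) and the embryonic beta-like Hbb-bh1 (3.47, 7.46, 976) were higher, by at least 58.8-fold, 50.5-fold and at least 59.7-fold. Hba-a1 and Hbb-bh1 were not well above background on the empty vector array. The fourth tested globin, the widely expressed cytoglobin Cygb (178, 1985, 43.2), was 4.12-fold lower. The leukocyte antigen Ptprc was dim or near detection at 17.6, 10.2 and 11.3, and Epor, the erythropoietin receptor, was 4.19-fold lower. Of neural and neural crest markers 7 of 22 were higher (4 of the 16 measured on both arrays), among them the glial S100b (197, 1375, 1037) and the tubulin Tubb3 (1821, 2638, 5348).

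Neighbouring genes that both passed 2-fold did so more often in the same direction than in opposite ones. Among 13220 pairs of neighbouring tested genes, 129 had both members at least 2-fold higher, 125 both lower, and 114 had 1 higher and 1 lower. The calls behind these counts include bounds, 233 of the 988 higher and 316 of the 879 lower genes, which could go only 1 way. Counts over pairs measured on both arrays alone are not given. Runs of at least 3 neighbours numbered 20 among higher genes, the longest of 5 genes, and 18 among lower genes, the longest of 4. Several are families of related genes, chosen here after their values were seen. Higher were the runs Hoxb5 to Hoxb13, Hoxa4 to Hoxa7, the Gsta genes, the carnitine and cation transporters Slc22a4, Slc22a5 and Slc22a21 on chromosome 11, and Psca, Them6, Slurp1 and Lypd2 on chromosome 15. Lower were the proteoglycans Dcn, Lum and Epyc, the antiviral Oas1a, Oas1c, Oas1e and Oas1f on chromosome 5, and Kng1, Kng2 and Hrg on chromosome 16. Kng1, a kininogen, read 1686, 2764 and 53. All 5 genes of the run Hoxb5 to Hoxb13 were dim on the empty vector array, so that run could only be higher. Related neighbours can share probe signal, so a run does not count as several measurements.

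Whole chromosomes also stood apart. Over genes measured on both arrays, chromosome 10 had the highest median log2 ratio, 0.44 over 592 genes (quartiles 0.12 and 0.72), with 81.6% of its genes above 0, and 71 of them were at least 2-fold higher and 17 lower. The X chromosome followed at 0.30 (76.1% above 0), then chromosome 17 at 0.20, 19 at 0.18 and 7 at 0.16. Lowest was chromosome 18 at -0.33 over 302 genes (28.1% above 0), then 2 at -0.23, 16 at -0.20 and 13 at -0.18. The Y-linked genes Ddx3y (1799, 1546, 940.0), Eif2s3y (4071, 3919, 2230.4) and Uty (47, 39.2, 31.2) were detected on all arrays, with log2 ratios of -0.94, -0.87 and -0.59. On the Dnmt1 shRNA array, set against the same empty vector array, the chromosome medians lay between -0.09 and 0.01. After each chromosome's median was subtracted from its genes, 937 genes passed 2-fold upwards and 872 downwards, of which 879 and 802 were among the genes called without that step. What the shifts come from was not tested.

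**Figure D5:**
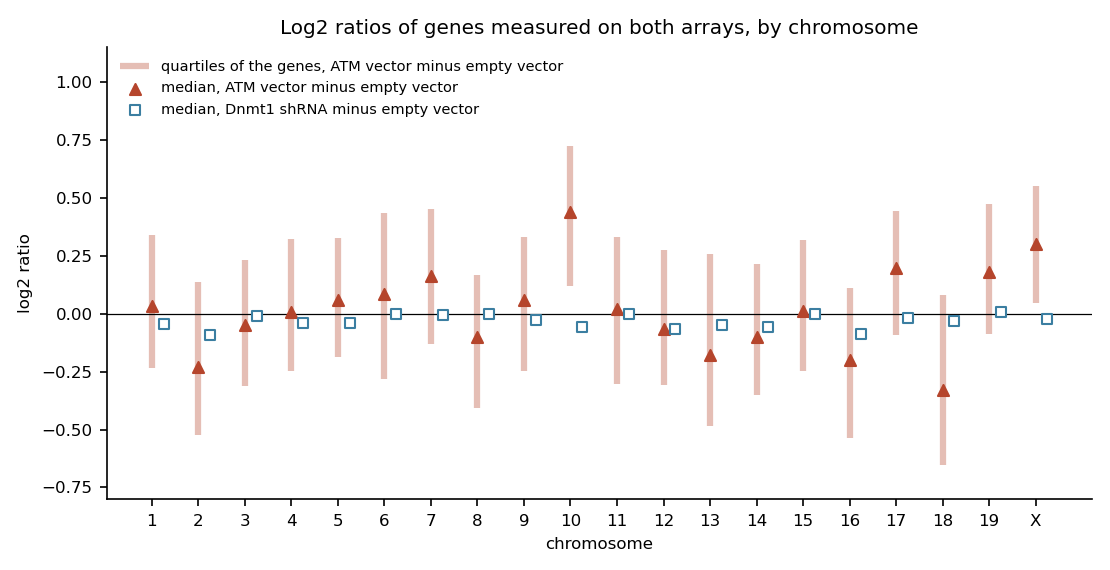
Median log2 ratio of the genes on each chromosome, array labelled ATM vector minus empty vector array (triangles), with bars from the lower to the upper quartile, and the median for the Dnmt1 shRNA array minus the same empty vector array (squares). Chromosomes 10 and X sit highest and chromosome 18 lowest for the array labelled ATM vector, while the squares stay between -0.09 and 0.01.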

How the data were processed

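Cy3-labelled RNA was hybridised to 1-colour Agilent arrays, 1 array per group. Per the submitters' processing notes, the authors made the spot intensities in Agilent Feature Extraction 10.7.3.1. The deposited processed signal has local background and spatial trend subtracted, per the file headers. The authors' value table holds the same intensity values within 0.495%. Control spots and outlier spots were left out, log2 processed signal was averaged per probe, and each array's 75th percentile was subtracted. A probe flagged well above background on at least 1 compared array was kept. A gene's ratio is the mean over its probes above background on both arrays, otherwise a bound. Of 39404 probes, 26397 have 1 gene symbol, 0 have several and 13007 have none and stay unnamed here. Symbols are those of RefSeq, matched through each probe's sequence identifier, so a probe with no RefSeq match has no symbol here. Older symbols in the lists were updated through RefSeq synonyms.

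No test was run, because each group has 1 array, and the precision is limited by the number of arrays. A gene was called at 2-fold. The text names Atm, Rb1, Dnmt1, Dnmt3a, Dnmt3b, Uhrf1, Kat5 and Usp7, genes among the 25 highest and 25 lowest measured ratios and the 15 largest bounds each way (provisional symbols left out), the 8 members of each list farthest from 0, and further list members with their values. The members and the 106 lists were chosen with earlier results of these data known. Opt, Fsp1 and Icam3 were left out of the lists, because their only synonym match is another gene. A list median is read as a direction only from 0.2 on the log2 scale. Some genes are not reported here. Motifs were searched in the 250 bases upstream of RefSeq starts (GRCm38.p6). Alternatives were other background corrections, scalings, filters, probe choices, the value table and chromosome medians. The calling step was checked on simulated ratios. Python 3.11.15 (numpy 2.4.6, pandas 2.3.3, matplotlib 3.10.9) and R 4.3.3 with limma 3.58.1 were used.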

Additional observations from a re-analysis of the deposited data

Results flagged for a closer look

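Probes named only by an accession, with no gene symbol, entered no comparison above. Of 5221 such features tested the same way, 280 were at least 2-fold higher on the array labelled ATM vector and 269 at least 2-fold lower, 5.36% and 5.15%, beside 7.46% and 6.64% of genes with a symbol. They were picked out because they carry signal in data that no comparison used. Over those measured on both arrays the median log2 ratio was 0.14, beside 0.03 for genes with a symbol.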

How the results depend on the processing

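Genes at least 2-fold higher numbered 988 and genes at least 2-fold lower 879. The count of lower genes was 1370 with no filter on dim probes and 563 over genes above background on both arrays. Under the other alternatives run, it lay between 637 and 1070, and the count of higher genes between 733 and 1442 under all of them. The share of calls that were higher was 52.9%, and between 50.3% and 57.3% under the alternatives. Of the 45 list medians at least 0.2 from 0 on the log2 scale, 5 changed sign under 1 or more of 10 alternatives: retinoid genes to 0.038 and mesothelial markers to 0.19 over genes above background on both arrays, replication-dependent histones to -0.020 under quantile normalization, and Wnt ligands and receptors to 0.035, chemokines and their receptors to 0.0242 and mesothelial markers to 0.026 with no filter. Of the other 61 lists, 27 changed sign. None of the 286 genes of the text that passed 2-fold changed sign under these alternatives, and 8 of the 63 that did not pass did, all with a log2 ratio within 0.229 of 0. Sizes changed more often than signs. Among the 349 genes of the text, 150 ratios moved by at least the pooled SD between probes under normexp. That number was 56 with no filter and 52 with dim signals as measured. Normexp kept 715 of the 988 higher genes and 611 of the 879 lower genes. The cause of each change was not tested. Normexp was run on the median spot signal, chosen after seeing the data, since mean spot signals were not used here; it gave 733 higher and 637 lower. No paired analysis was possible because each group has 1 array, and leaving out a replicate or fitting the slide as a block was not possible for the same reason. Genes near the lowest signal above background (16.4 and 15.5 scaled units) have only bounds or uncertain ratios.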
